A study of Mus musculus with 2 samples.

Results

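The 26S proteasome is built from 31 constitutive subunits considered here, namely Psma1 to Psma7, Psmb1 to Psmb7, Psmc1 to Psmc6 and 11 Psmd genes (Psmd1 to Psmd4, Psmd6 to Psmd8 and Psmd11 to Psmd14). They were chosen by gene name, with earlier results of these data known, and all 31 were measured among the 16069 genes tested. Mouse embryonic stem cells (ESCs) of strain B6C3F1 at passage 26 were compared as WT and as cells labelled HDAC6 overexpression. Both grew with LIF on feeder layers of mitomycin-treated mouse embryonic fibroblasts. How HDAC6 was raised, and whether the overexpressing cells derive from 1 clone, is not given in the sources used here. RNA was hybridised to 2 two-colour Agilent arrays, each with WT in Cy3 and HDAC6 overexpression in Cy5, without a dye swap, so a dye effect and the effect of overexpression cannot be told apart. Every change is a log2 ratio of the processed signal of overexpressing cells over that of WT, so a negative value is a lower signal in the overexpressing cells.

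The proteasome is the main protease for proteins tagged with ubiquitin. Its 20S core is a barrel of stacked rings, with outer rings of alpha subunits (Psma) that gate the chamber and inner rings of beta subunits (Psmb) that hold the active sites. The 19S particle caps the barrel: its base holds the ATPases (Psmc) that unfold substrates, and its lid removes the ubiquitin chain. HDAC6 is a mainly cytoplasmic deacetylase that also binds ubiquitin and carries ubiquitinated proteins towards aggresomes, an alternative route for proteins that the proteasome does not degrade.

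Of the 31 subunit genes, 12 fell and 2 rose in the overexpressing cells, and 17 were not called (limma, adjusted p under 0.05 over all genes tested). The genes that fell made up 38.7% of the subunit genes, against 29.9% of all genes tested, and those that rose made up 6.45%, against 21.2%. All 6 subunit genes on chromosome 11, Psmb3, Psmb6, Psmc5, Psmd3, Psmd11 and Psmd12, were among the 12 that fell. The others that fell were Psma1, Psma2, Psma7, Psmc1, Psmc6 and Psmd4, and the 2 that rose were Psmd1 and Psmd8. These directions rest on an intensity-dependent normalization: with each array only centred on its median, 0 subunit genes were called lower and 19 higher. The median log2 ratio of the 31 genes was -0.15 on replicate 1 and -0.19 on replicate 2, beside a mean-ratio median of -0.06 for all genes tested. The ratio had the same sign on both arrays for 25 of the 31 genes, with 19 below 0 and 6 above 0 on both. The gap between the 2 arrays had a median of 0.11 over the subunit genes and reached 0.41 in Psmd8.

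**Figure D1:**
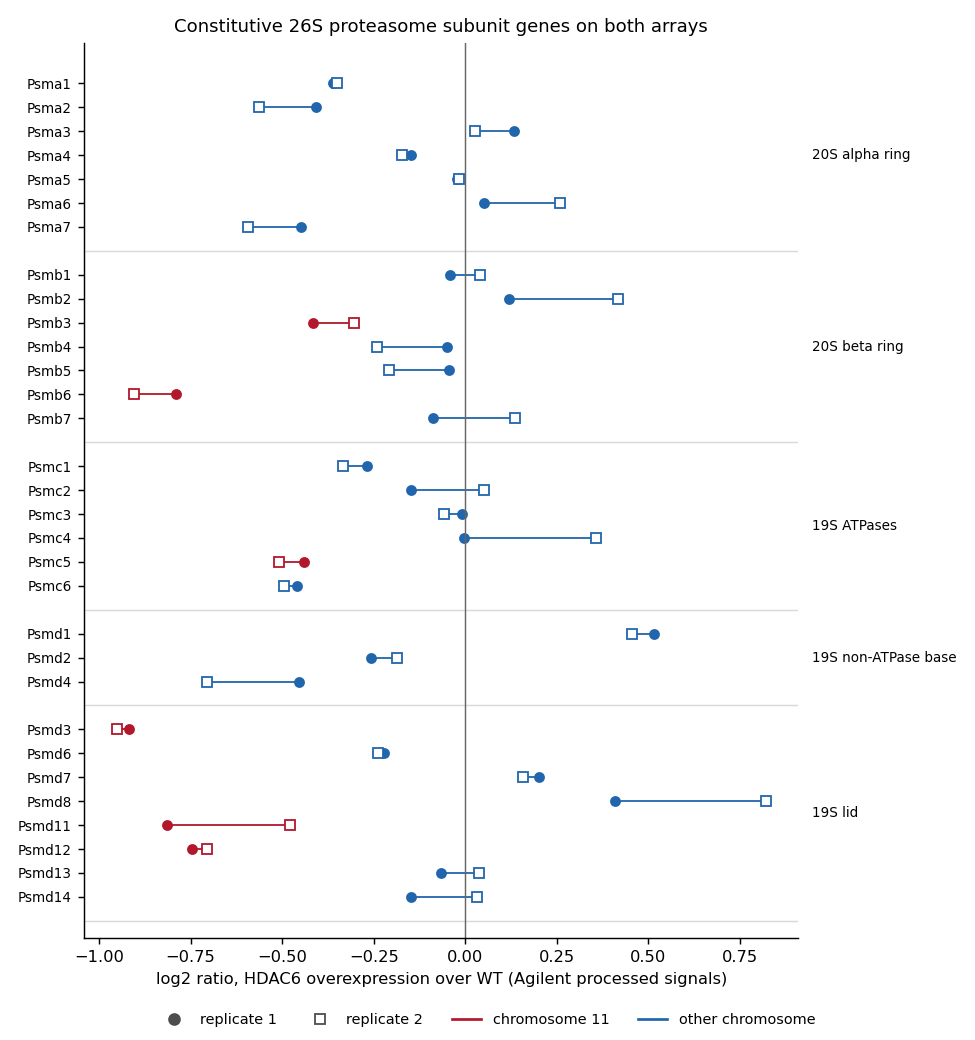
Log2 ratio of HDAC6 overexpression over WT for the 31 subunit genes, grouped by sub-particle, with 1 point per array and a line joining them. Psmd3 and Psmb6 have the lowest means (-0.94 and -0.85), and Psmd8 has the highest (0.61).

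The arrays held 62976 spots each, 0 of them saturated, and between 68.8% and 69.6% of the spots other than controls were well above background in each channel. All 31 subunit genes were well above background in both channels of both arrays. Both arrays are labelled as biological replicates, yet separate cultures are not documented in the sources used here. The p-values rest on the spread between these 2 arrays, with that of each gene moderated by the spread pooled over all genes tested. This spread may be technical. Hdac6 itself had log2 ratios of 0.16 and -0.04 (mean 0.06, limma adjusted p = 0.64), and 0.52 with median centring alone. Whether its probe can detect the introduced HDAC6 RNA is unknown, so it does not check the labels. Markers of other cell types moved with the comparison. Of 13 fibroblast markers, 12 were higher, and their summed signal was 106752 and 92182 in WT and 199520 and 263000 in overexpressing cells. All 10 primitive endoderm markers were higher, with a summed signal of 9059 and 9756 in WT and 114756 and 117825 in overexpressing cells. Of 8 ESC markers, 4 were lower and 1 higher, with sums of 171295 and 182132 in WT and 149279 and 161893 in overexpressing cells. The direction of the ESC markers also depends on the normalization, as 5 were called higher and 2 lower with median centring alone, where all 13 fibroblast and all 10 primitive endoderm markers were called higher. No marker of these lists was at 0, as all were well above background in both channels. In bulk RNA, fewer cells of a type and less RNA per cell cannot be told apart, and the part of cell composition in the subunit values was not tested.

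Psmd3, a scaffold subunit of the lid, had the lowest ratio of all 31 genes. Its processed signal was 33888 and 37412 in WT and 17929 and 19340 in overexpressing cells, so both overexpression values lay below both WT values. The log2 ratio was -0.92 and -0.95 on the 2 arrays, a 1.91-fold lower signal (SE 0.090 on the log2 scale, limma adjusted p = 0.00093). Psmb6, which carries the caspase-like active site of the core, followed with signals of 30310 and 32770 in WT and 17526 and 17497 in overexpressing cells. Its log2 ratio was -0.79 and -0.91, or 1.80-fold lower (SE 0.092, limma adjusted p = 0.0013). Both genes lie on chromosome 11. With the arrays only centred on their medians their mean log2 ratios were -0.20 and -0.15, below 0 but with 0 members called lower in that setting.

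Psmd12 and Psmd11, scaffold subunits of the lid that share the same fold as Psmd3, also fell and also lie on chromosome 11. Psmd12 had signals of 35781 and 36713 in WT and 21329 and 22513 in overexpressing cells. Its log2 ratio was -0.75 and -0.71, a 1.65-fold lower signal (limma adjusted p = 0.0019). Psmd11 had signals of 35303 and 32960 in WT and 20073 and 23636 in overexpressing cells, and its arrays were further apart, at log2 ratios of -0.81 and -0.48 (mean -0.65, limma adjusted p = 0.0063). In neither gene did the WT and overexpression values overlap, but the mean log2 ratio was 0.13 for Psmd12 and 0.20 for Psmd11 with median centring alone. The share of all tested genes whose values do not overlap was not counted, so this separation cannot be called particular to the members named above, here or below. It also sets signals of 1 array against those of the other, with no scaling between arrays added here. The log2 ratios keep the pairing within each array. The second probe of Psmd12 read -0.95 on the log2 ratio scale, the same direction as the probe used.

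The remaining chromosome 11 members fell by less. Psmc5, an ATPase of the base, had signals of 20644 and 23008 in WT and 15212 and 16169 in overexpressing cells, with log2 ratios of -0.44 and -0.51 (limma adjusted p = 0.0083). Psmb3, a structural subunit of the beta ring, had signals of 28820 and 28916 in WT and 21600 and 23428 in overexpressing cells, with log2 ratios of -0.42 and -0.30 (limma adjusted p = 0.023). The 2 conditions did not overlap for either gene. With median centring alone their mean log2 ratios were 0.0032 and 0.42.

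Among the 6 members on chromosome 11, 6 were called lower, where 66.9% of all 1340 tested genes of that chromosome were called lower. Among the 25 members on other chromosomes, 6 were called lower (24.0%), where the share over all 14729 tested genes elsewhere was 26.5%. The share of members elsewhere was thus near that of other genes elsewhere. The median log2 ratio of the chromosome 11 members was -0.77 on replicate 1 and -0.61 on replicate 2, and that of the other members was -0.07 and -0.02. The difference between these medians was -0.70 and -0.59 on the 2 arrays, and -0.64 for the mean ratios. With 2 arrays an exact sign-flip test cannot give a two-sided p below 0.5, so none is given for this difference. The ranges overlapped: the chromosome 11 members ran from -0.94 to -0.36, and Psma2, Psma7, Psmc6 and Psmd4 on other chromosomes lay below Psmb3.

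**Figure D2:**
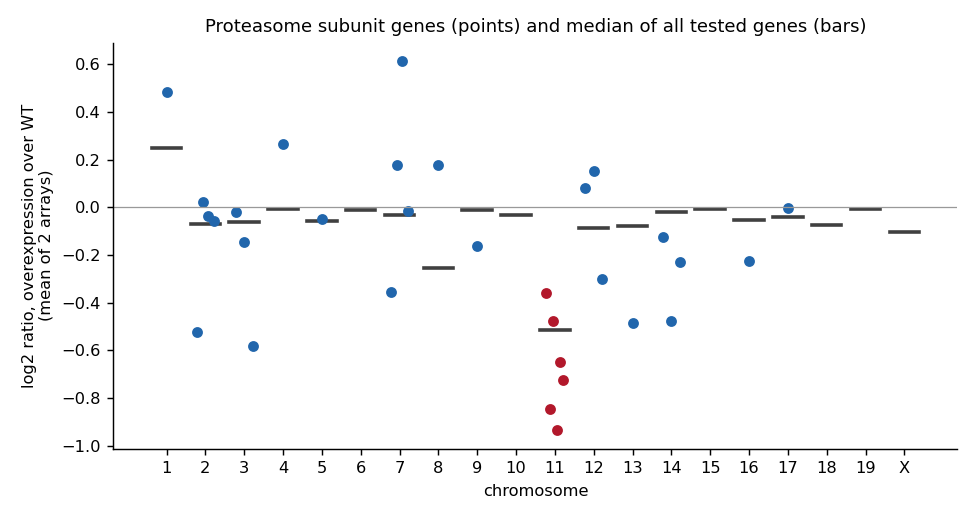
Log2 ratio of HDAC6 overexpression over WT by chromosome, as the mean of both arrays, for each subunit gene and as the median of all tested genes of the chromosome. Chromosome 11 has the lowest median (-0.51), and its 6 subunit genes lie on both sides of that median.

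The chromosome 11 members followed a low level of the whole chromosome. The median log2 ratio of its 1340 tested genes was -0.52 and -0.50 on the 2 arrays, the lowest of any chromosome plotted, while that of the 14729 genes elsewhere was -0.03 for the mean ratios. Measured against their chromosome's median, Psmd3 stood at -0.42, Psmb6 at -0.34, Psmd12 at -0.21 and Psmd11 at -0.13 on the log2 ratio scale, whereas Psmc5 lay 0.04 and Psmb3 0.15 above it. A comparison added after the data were seen took the 10 nearest tested genes on each side. Around Psmb6 the flanking genes had a median log2 ratio of -0.62, and 17 of 20 were called lower. Around Psmc5 the flanking median was -0.79, below the gene's own value of -0.47, and 17 of 20 were called lower. For Psmd3 and Psmd12 the flanking medians were -0.47 and -0.43, against own values of -0.94 and -0.73. In these flanks 14 of 20 genes around Psmd3 and 11 of 20 around Psmd12 were called lower. Psmb3 had a flanking median of -0.40 with 13 of 20 called lower, and Psmd11 one of -0.46 with 11 called lower and 7 higher. These 6 genes are spread along the chromosome, between position 536 (Psmb6) and position 1133 (Psmd12) in the order of its tested genes.

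The gap between chromosome 11 members and the others kept its sign when the normalization changed. It was -0.51 after normexp background correction with loess and -0.44 after normexp with median centring alone, where the chromosome 11 members had a median log2 ratio of 0.07 and the others 0.51. For all tested genes the gap between chromosome 11 and the rest was -0.48, -0.43 and -0.39 in these 3 settings. Whether the copy number of chromosome 11 differed between the cells was not tested.

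The counts by sub-particle stand beside 29.9% of all tested genes called lower and 21.2% called higher, and no sub-particle was shown to differ from these shares. In the alpha ring 3 of 7 genes fell, 0 rose, and the median log2 ratio was -0.15 and -0.17 on the 2 arrays. Psma7 had log2 ratios of -0.45 and -0.59 (limma adjusted p = 0.0069), with signals of 26215 and 31334 in WT and 19199 and 20765 in overexpressing cells. Psma2 had log2 ratios of -0.41 and -0.56 (limma adjusted p = 0.0091), with signals of 29080 and 34815 in WT and 21913 and 23578 in overexpressing cells. Psma1 had almost equal log2 ratios on the 2 arrays, -0.36 and -0.35 (limma adjusted p = 0.021). In all of these the 2 conditions were apart on both arrays, although with median centring alone Psma7 and Psma2 had mean log2 ratios of 0.19 and 0.30 and Psma1 one of -0.12. Psma3 had log2 ratios of 0.13 and 0.03. Psma6 read 0.05 and 0.26, Psma4 -0.15 and -0.17, and Psma5 -0.02 and -0.02, and none of these passed the test.

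In the beta ring 2 of 7 genes fell, Psmb6 and Psmb3, both on chromosome 11, and 0 of the other 5 passed the test. Besides Psmb6, the active sites belong to Psmb5, the chymotrypsin-like subunit, and Psmb7, the trypsin-like subunit. Psmb5 had signals of 21509 and 25381 in WT and 20865 and 21966 in overexpressing cells, with log2 ratios of -0.04 and -0.21 (limma adjusted p = 0.31). Psmb7 had signals of 11182 and 11172 in WT and 10509 and 12272 in overexpressing cells, with log2 ratios of -0.09 and 0.14. For Psmb5 and Psmb7 the WT and overexpression values overlapped. Psmb2 had the highest mean log2 ratio of the ring, 0.27 from 0.12 and 0.42 (limma adjusted p = 0.089), and was called higher after normexp and loess. Psmb4 (-0.05 and -0.24) and Psmb1 (-0.04 and 0.04) did not pass. The median log2 ratio of the ring was -0.05 on replicate 1 and -0.21 on replicate 2 (-0.13 for the mean ratios), and without its chromosome 11 members it was -0.04 and 0.04 (-0.00069 for the mean ratios).

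Of the 6 base ATPases 3 fell and 0 rose. Psmc6 had log2 ratios of -0.46 and -0.50 (limma adjusted p = 0.0078), with signals of 18877 and 21798 in WT and 13727 and 15466 in overexpressing cells, and Psmc5 was close to it. Psmc1 passed narrowly, with log2 ratios of -0.27 and -0.33 (limma adjusted p = 0.037). Its second probe had a mean log2 ratio of 0.12, and with the mean over both probes (-0.09), after normexp and loess (-0.19), or with no filter on dim probes (limma adjusted p = 0.061), Psmc1 was not called. Psmc2 (-0.15 and 0.05), Psmc3 (-0.01 and -0.06) and Psmc4 (-0.003 and 0.36) were not called, and the 2 arrays of Psmc2 and of Psmc4 had opposite signs.

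The 3 base subunits without ATPase activity went in different directions. Psmd1, a large scaffold of the base, rose, with signals of 10960 and 12174 in WT and 15664 and 16701 in overexpressing cells. Its log2 ratios were 0.52 and 0.46, a 1.40-fold higher signal (limma adjusted p = 0.0075). Psmd4, a ubiquitin receptor that binds the chain on a substrate, fell, with signals of 20796 and 24292 in WT and 15186 and 14890 in overexpressing cells. Its log2 ratios were -0.45 and -0.71, a 1.49-fold lower signal (limma adjusted p = 0.0067), which made it the lowest member outside chromosome 11. Psmd2, the scaffold that docks shuttle proteins, had log2 ratios of -0.26 and -0.19 (limma adjusted p = 0.088) and was called lower after normexp and loess. With median centring alone Psmd1 stayed above 0 at 0.77 and Psmd4 stayed below 0 at -0.10.

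In the lid 3 of 8 genes fell, the chromosome 11 members Psmd3, Psmd11 and Psmd12, and 1 rose. The gene that rose was Psmd8, a lid subunit that is added late in assembly, with signals of 15577 and 13332 in WT and 20662 and 23534 in overexpressing cells. Its log2 ratios were 0.41 and 0.82, so its mean of 0.61 (1.53-fold, limma adjusted p = 0.010) lay between arrays that differed by more than those of any other member. Psmd14, the metalloprotease that cuts the ubiquitin chain from the substrate, had log2 ratios of -0.15 and 0.03 (limma adjusted p = 0.64). Psmd7, its partner in the lid, had 0.20 and 0.16 (limma adjusted p = 0.14) and was called higher after normexp and loess. Psmd6 had -0.22 and -0.24 (limma adjusted p = 0.078), and Psmd13 had -0.07 and 0.04. The median log2 ratio of the lid was -0.19 and -0.10 on the 2 arrays (-0.14 for the mean ratios), and without the chromosome 11 members it was -0.07 and 0.04 (-0.01 for the mean ratios). Over all 11 Psmd genes 4 fell and 2 rose, with a median log2 ratio of -0.22.

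Psmd1 lies on chromosome 1, which had the highest chromosome median (0.25), and it read 0.24 above that median. The 20 genes that flank it had a median log2 ratio of 0.09, with 6 called higher and 3 lower. Psmd8 on chromosome 7 stood 0.65 above its chromosome's median and above a flanking median of 0.14. Psmd7 lies on chromosome 8, whose median was the second lowest at -0.25, and read 0.43 above it.

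By a fold rule with no test, 3 subunit genes were at least 1.5-fold lower on both arrays, Psmb6, Psmd3 and Psmd12, all on chromosome 11. The share of all tested genes past this fold was 12.6% on the lower side and 7.88% on the higher side, where there were 0 subunit genes.

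The promoters of the lowest members with a RefSeq entry, Psmb6 and Psmd12, and of those that rose, Psmd1 and Psmd8, are shown. The subunit genes are known to share an antioxidant response element, bound by NFE2L1 and NFE2L2, which raises them when proteasome activity is limiting. The 250 bases before the annotated start are given 5′ to 3′ on the gene's strand, from RefSeq on GRCm38.p6, with any match to TGACNNNGC (either strand) in capitals. Psmb6 is at chr11:70525107-70525356 on the plus strand, Psmd12 at chr11:107479278-107479527 on the plus strand, Psmd1 at chr1:86064369-86064618 on the plus strand and Psmd8 at chr7:29180674-29180923 on the minus strand.
Psmb6: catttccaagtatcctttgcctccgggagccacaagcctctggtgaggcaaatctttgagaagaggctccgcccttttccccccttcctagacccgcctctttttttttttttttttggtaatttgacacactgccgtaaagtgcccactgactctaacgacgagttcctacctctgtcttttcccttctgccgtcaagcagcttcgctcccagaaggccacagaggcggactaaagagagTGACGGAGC
Psmd12: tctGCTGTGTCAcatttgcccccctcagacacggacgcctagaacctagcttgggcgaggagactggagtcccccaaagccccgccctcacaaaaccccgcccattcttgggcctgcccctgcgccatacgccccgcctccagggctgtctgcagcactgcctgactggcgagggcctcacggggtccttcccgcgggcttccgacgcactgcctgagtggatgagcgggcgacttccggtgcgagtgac
Psmd1: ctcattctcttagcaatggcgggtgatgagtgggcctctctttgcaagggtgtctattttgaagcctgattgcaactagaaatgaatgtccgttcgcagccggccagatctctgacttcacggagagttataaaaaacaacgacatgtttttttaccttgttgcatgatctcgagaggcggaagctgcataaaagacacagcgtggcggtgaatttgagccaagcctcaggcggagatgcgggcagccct
Psmd8: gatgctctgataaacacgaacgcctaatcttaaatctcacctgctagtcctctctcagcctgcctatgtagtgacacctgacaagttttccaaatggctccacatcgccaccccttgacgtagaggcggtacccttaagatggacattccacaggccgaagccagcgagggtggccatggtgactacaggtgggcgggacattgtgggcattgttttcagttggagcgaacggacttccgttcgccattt
Psmb6 and Psmd12, which fell, each hold 1 match, Psmb6 directly before its start (from base 242) and Psmd12 far upstream (from base 4, on the reverse strand). Psmd1 and Psmd8, which rose, hold 0 matches in this window. Psmd11, Psmd4 and Psma7, which also fell and are not shown, hold no match either. Whether the motif goes with the direction of change was not tested.

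Of the 31 members 25 had a promoter entry, and 4 of them (16.0%) held TGACNNNGC, Psmb5, Psmb6, Psmc6 and Psmd12, against 10.2% of all 32851 promoters in the table. Of these 4, all but Psmb5 were called lower, beside 38.7% of all 31 members and 29.9% of all tested genes. Psma1, Psma2, Psma7, Psmb3, Psmc1, Psmd4 and Psmd11 were also called lower and held no match. With 4 genes, a link between this motif and direction was not tested. CCGGAAG, the core of ETS family sites, was in 9 of 25 (36.0%), against 6.91% of all promoters. CCAAT, which NF-Y binds, was in 10 of 25 (40.0%), against 33.9% of all promoters. TGACGTCA, the CREB palindrome, was in 0 of 25 and in 1.55% of all promoters. Members were counted by gene and the background by promoter entry, whether or not the gene was expressed, so these shares are not counted alike. No enrichment was tested. Both strands were searched, and no motif of this set contains another, although TGAC begins both the first and the last.

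All 31 members gave bright spots, and the intensity of a spot bore on its ratio. Their brightness lay between percentile 66.3 (Psmd2) and percentile 98.9 (Psma3) of all tested genes. The processed ratios, to which the scanner software had applied linear and lowess dye normalization, gave the members a median log2 ratio of -0.15. After normexp and loess it was -0.14, with 13 members called lower and 6 higher, against 34.5% and 22.2% of all tested genes. The 6 were Psma3, Psma6, Psmb2, Psmd1, Psmd7 and Psmd8. After normexp with median centring alone the members' median was 0.38, and 19 were called higher and 0 lower, against 30.4% and 30.0% of all tested genes. Genes within the members' brightness range had median log2 ratios of -0.08, -0.10 and 0.19 in these 3 settings. The members' median thus moved further between the processed ratios and median centring than that of the genes within this range. The range is not matched in brightness, because the members sit near its top, with their median brightness at percentile 96.4 (Psmb5). The part of brightness in their values was not tested.

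**Figure D3:**
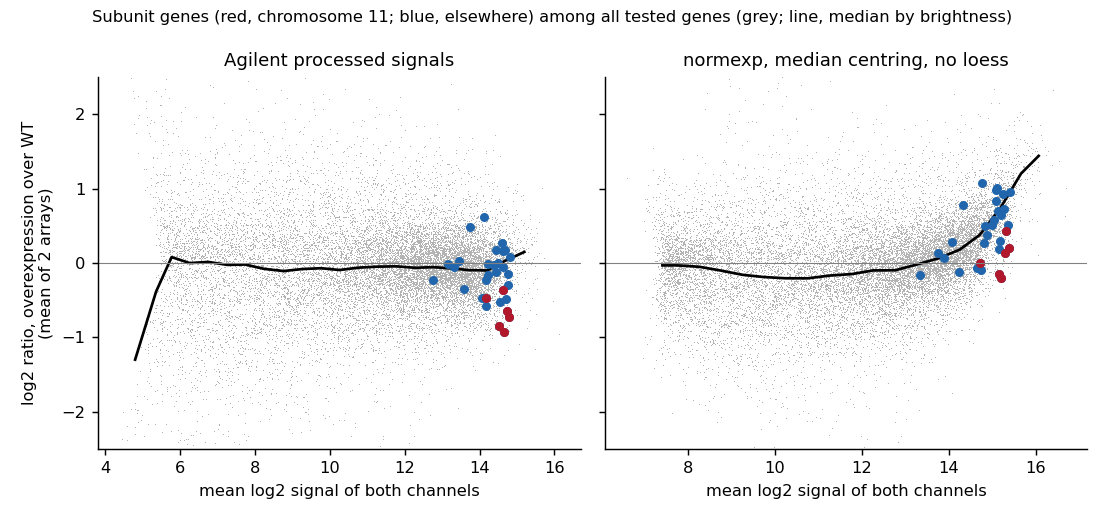
Log2 ratio of HDAC6 overexpression over WT against mean log2 brightness in 2 settings, with all tested genes in grey, a black line at their median by brightness, members on chromosome 11 in red and the other members in blue. The vertical axis leaves out the most extreme grey points, and members lie in the bright range, where the median line is above 0 with median centring alone.

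**Figure D4:**
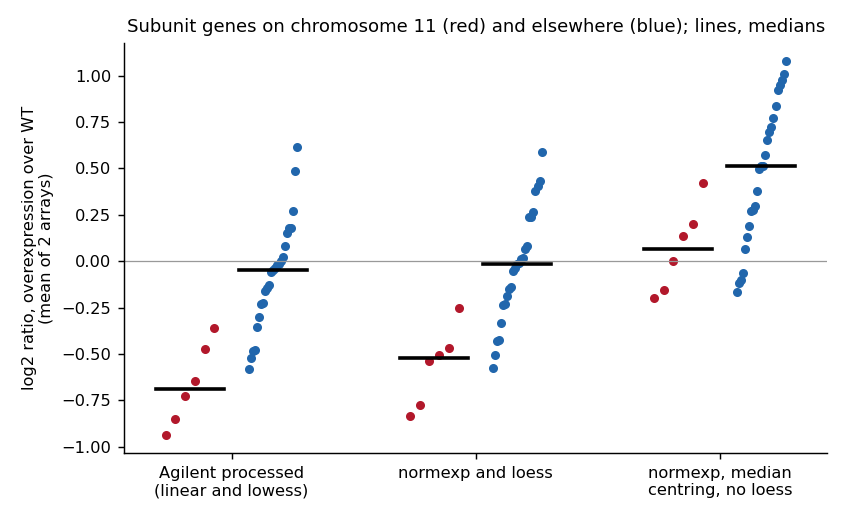
Mean log2 ratio of each subunit gene in the 3 normalization settings. Psmd8 stays above 0 in all of them (0.61, 0.59 and 1.08), and Psmd3 and Psmb6 stay below 0, while 17 of the 23 members that lay below 0 in the processed ratios lie above 0 with median centring alone.

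The inducible subunits that replace the active sites of the core in immunoproteasomes were lower by more than their constitutive counterparts. Psmb8, Psmb9 and Psmb10 all fell, 3 of the 4 genes measured in their list (75%, against 29.9% of all tested genes). Psmb8 had signals of 10106 and 11009 in WT and 2468 and 3319 in overexpressing cells, with log2 ratios of -2.03 and -1.73 (limma adjusted p = 0.00024). Psmb9 had log2 ratios of -1.44 and -1.43, and Psmb10 had -1.10 and -0.99. Set against the constitutive subunit it replaces, Psmb8 was lower than Psmb5 by a difference of log2 ratios of -1.99 and -1.52 (mean -1.76 ± 0.33, SD, n = 2). Psmb10 against Psmb7 gave -1.01 and -1.12 (mean -1.07 ± 0.079, SD, n = 2), and Psmb9 against Psmb6 gave -0.65 and -0.53 (mean -0.59 ± 0.085, SD, n = 2). All 3 pairs had the same sign on both arrays, and with 2 arrays no exact test of these differences can pass. The mean log2 ratios with median centring alone were -1.85 for Psmb8, -1.45 for Psmb9 and -0.58 for Psmb10, all called lower. Those of Psmb5, Psmb6 and Psmb7 were 0.52, -0.15 and 0.28 in that setting. The inducible subunit was thus the lower of each pair there too, but the size of each gap depends on the normalization. Of these 6 genes only Psmb6 lies on chromosome 11. Psma8, the testis form of an alpha subunit, had log2 ratios of 0.12 and 0.27 and did not pass, and Psmb11, the thymus form, was on the array but not well above background.

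**Figure D5:**
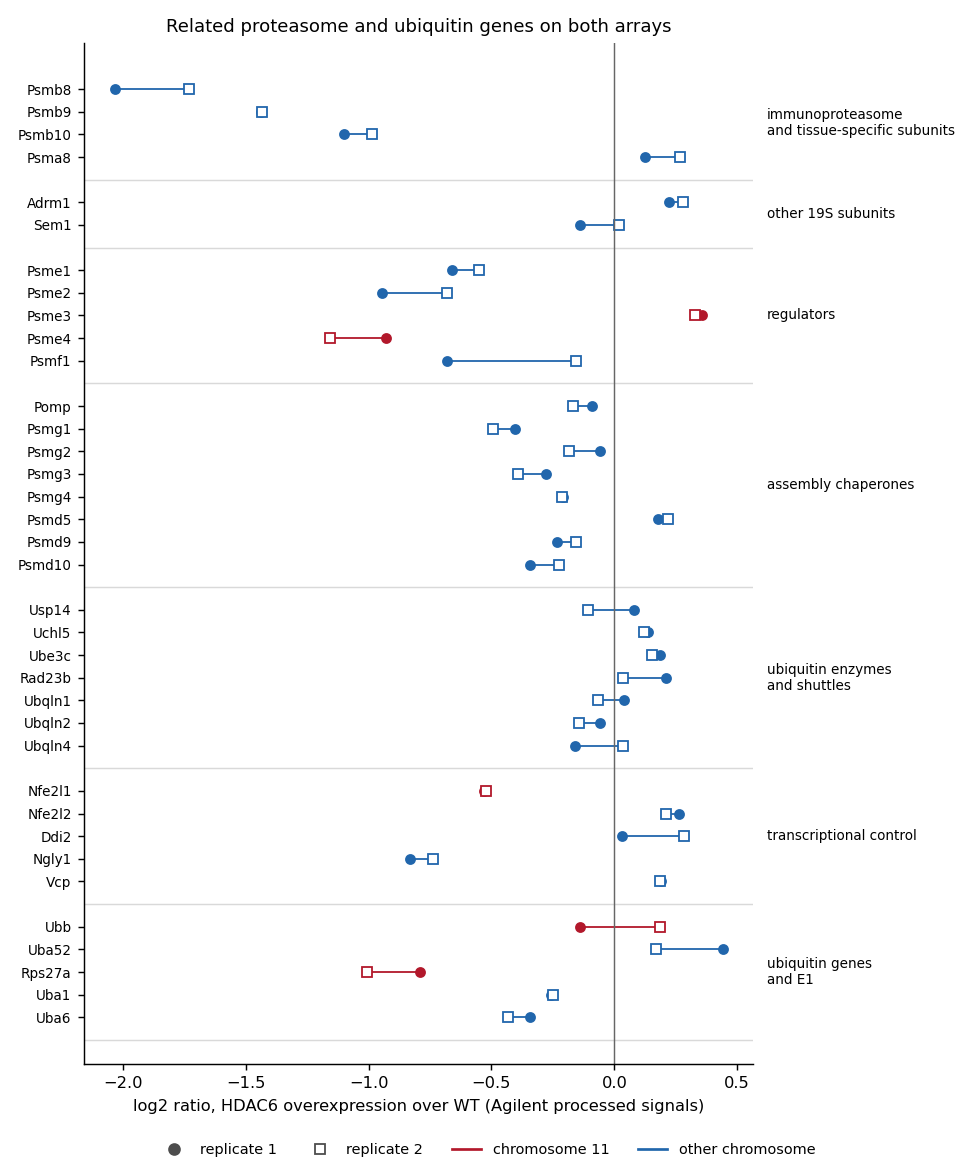
Log2 ratio of HDAC6 overexpression over WT for genes related to the proteasome, by list, with 1 point per array. Psmb8 and Psmb9 lie lowest, between -2.03 and -1.43, and Psme3 is the only gene called higher in the processed ratios.

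Of 38 genes in the related lists 36 were tested, 13 fell (36.1%, against 29.9% of all tested genes) and 1 rose. With median centring alone 8 were called lower and 13 higher, against 30.0% and 30.4% of all tested genes. Among 5 regulators, the activator caps and the inhibitor Psmf1, 3 were called lower. They were Psme1 (log2 ratio -0.61) and Psme2 (-0.81), which form the interferon-inducible cap, and Psme4 (-1.04), the cap PA200. With median centring alone Psme2 was not called (-0.02). Psme3, the nuclear cap PA28 gamma, rose, at a log2 ratio of 0.34 (limma adjusted p = 0.024), although it lies on chromosome 11, where its 20 flanking genes had a median of -0.55. Psme4, also on chromosome 11, lay below its flanking median of -0.68. Its second, dimmer probe read -0.36 and -0.87, with a mean of -0.62 above that flanking median. The inhibitor Psmf1 had a log2 ratio of -0.42 (limma adjusted p = 0.054).

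Of 8 measured assembly chaperones 3 fell (37.5%, against 29.9% of all tested genes) and 0 rose, and 0 were called lower with median centring alone. Psmg1 (log2 ratio -0.45) and Psmg3 (-0.33) help to form the alpha ring, and Psmd10 (-0.28, limma adjusted p = 0.048) helps to form the base. The second probe of Psmd10 had a mean log2 ratio of -0.01, and the gene was not called with the mean over both probes (limma adjusted p = 0.20) or with no filter on dim probes (limma adjusted p = 0.077). Pomp, which guides beta-ring maturation, had a log2 ratio of -0.13 and did not pass. The 19S subunits outside the 31, Adrm1 (0.25) and Sem1 (-0.06), were not called.

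Among the genes that control subunit transcription 2 of 5 fell, a list too short to set against the 29.9% of all tested genes. Nfe2l1, the factor that raises proteasome genes, had a log2 ratio of -0.53 (limma adjusted p = 0.0055) and lies on chromosome 11, where its flanking median was -0.24. Ngly1, which deglycosylates the NFE2L1 protein so that it becomes active, had a log2 ratio of -0.79 (limma adjusted p = 0.0016). Its signal was weak, at 308 and 325 in WT and 173 and 195 in overexpressing cells (brightness percentile 16.3), though well above background. Nfe2l2 had 0.24 and Vcp 0.19, and neither passed.

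Of 5 genes for ubiquitin and its activating enzymes 2 fell, again with 29.9% of all tested genes called lower. Rps27a, which encodes ubiquitin fused to a ribosomal protein, had a log2 ratio of -0.90 and lies on chromosome 11. Its other probes read -0.40 and -0.38, the mean over probes was -0.56, and with median centring alone it was not called (-0.24, limma adjusted p = 0.054). Uba6, an activating enzyme, had -0.39. Ubb, a polyubiquitin gene on chromosome 11, had 0.02 with a flanking median of -0.70, and was not called. Of 7 ubiquitin enzymes and shuttles bound to the proteasome 0 passed the test in limma, also 0 at an unadjusted p under 0.05, and the median log2 ratio of that list was -0.01.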

How the data were processed

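The authors used Agilent Feature Extraction 11.5.1.1, per the file headers, which subtracted background and corrected dye bias by linear scaling plus lowess to give the deposited processed intensity of each channel. A log10 ratio of Cy5 to Cy3 processed signal is deposited beside it. The deposited series table holds log2 values. Its correlation with the ratios from the scanner files was -1.000 on both arrays, as was its slope, so it is WT over overexpression, and its medians were -0.0074 and 0.062. Whether it was centred further is unknown.

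From these, the log2 ratio of processed Cy5 over Cy3 was taken, outlier-marked spots (269 and 313) were left out and spots of a probe averaged. Of 55681 probes, 26762 had 1 gene symbol through their accession in RefSeq (GRCm38.p6), 0 had several and 28919 had none. The array grid is of mm9, so that table gave only names, chromosomes and gene order. A gene took its brightest probe, kept when both arrays had it well above background in the same channel. The ratio against 0 was tested with limma 3.58.1 in R 4.3.3 (intercept only, two-sided, Benjamini-Hochberg over 16069 genes, called at adjusted p under 0.05). The fit had 1 residual and 4.60 prior degrees of freedom and a median SE of 0.094. The same steps were run on simulated data with independent genes and no dye, brightness or chromosome effect, so that run cannot check for such effects. The arrays share 1 slide and 1 scan, which leaves no batch to test. Copies of a probe differed by a median SD of 0.031 and 0.032, and the number of arrays limits the precision. Alternatives changed the background correction and normalization (normexp with offset 50, then loess or median centring, which removed 0.12 and 0.24), probe choice, filter and intensity trend. All 31 members and the called genes of the related lists are named, and the members and lists were chosen with earlier results of these data known. A pair of genes of the related lists is not reported here.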

Additional observations from a re-analysis of the deposited data

How the results depend on the processing

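Of the alternatives run, normexp with median centring alone (no loess) changed the most. It gave 0 members called lower and 19 higher, with a median log2 ratio of 0.38, and 8 related genes lower and 13 higher. The sub-particle medians became 0.38 (alpha), 0.52 (beta), 0.54 (ATPases), -0.10 (base without ATPases) and 0.17 (lid), Hdac6 read 0.52 and the gap of chromosome 11 members to the others -0.44. Of 23 members below 0 in the processed ratios 17 turned above 0, as did 7 of 24 related genes. Those of them called in either setting were Psma2 (0.30), Psma4 (0.38), Psma5 (0.50), Psma7 (0.19), Psmb1 (0.70), Psmb3 (0.42), Psmb4 (0.65), Psmb5 (0.52), Psmc1 (0.51), Psmc2 (0.72), Psmc3 (0.57), Psmc5 (0.0032), Psmd6 (0.27), Psmd11 (0.20), Psmd12 (0.13), Sem1 (0.77), Pomp (0.33) and Usp14 (0.56). Normexp with loess gave 6 members and 4 related genes higher, a beta median of 0.012, an ATPase median of -0.10 and a gap of -0.51. The fold rule gave 3 members lower and 0 higher, and 7 related genes lower and 0 higher. Without chromosome 11, 6 members were lower. The mean over probes gave 2 related genes higher, an ATPase median of -0.053 and a gap of -0.72, the filter on both channels gave 2 related genes higher and the intensity trend 5. Without replicate 1 or 2 in turn the members' median was -0.19 to -0.15 and that of the ATPases -0.21 to -0.20. Counts of calls could not be given there, since 1 array leaves no residual degree of freedom. The cause of these changes was not tested, beyond the construction of the fold rule and of the set without chromosome 11. No paired analysis was possible beyond the pairing within each array, which the test of its ratio already uses, because the arrays share no other block.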
